A study of Mus musculus with 14 samples.

Results

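Smooth muscle contractile genes were followed across postnatal age and after injection of interleukin-22 in whole mouse ileum, the last stretch of the small intestine. The set holds 10 genes chosen by name as markers of the contractile apparatus: Des, Acta2, Actg2, Myh11, Tagln, Cnn1, Mylk, Smtn, Lmod1 and Synpo2. All 10 were found among the 46855 gene symbols of the expression table, and each had a value in all 14 libraries. The lowest was 8.55 TPM (a level per transcript length, given as a share of the library), so each of the 10 passed the filter on low values in both comparisons.

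Every mouse was C57BL/6N, an inbred laboratory strain, and no genotype other than wild type was used. Untreated mice were taken at postnatal day 14 (P14, 4 libraries), before weaning, and at day 24 (P24, 4 libraries). Injected mice received 100 µL of phosphate-buffered saline alone (PBS, 3 libraries), or 0.1 µg per g body weight of recombinant mouse Il22 in that volume of saline (rmIl22, 3 libraries). Injections were intraperitoneal, at days 14 and 15, and the injected mice were killed at day 16, so both injected groups share the handling and the vehicle. The age field of the labels disagrees with this for the injected mice, so groups follow the titles of the samples. Libraries are called by the numbers of the table columns, which have no order within a group. The series calls its replicates biological, but no source ties a library to an animal, a litter or a day, so the p-values measure the spread between these libraries.

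Smooth muscle contracts when a rise of calcium switches on myosin light chain kinase, which phosphorylates the light chains of smooth muscle myosin so that the myosin pulls on actin filaments. Gut smooth muscle builds these filaments from alpha and gamma smooth muscle actin, and ties them to a network of desmin intermediate filaments that links dense bodies and the cell surface. In the ileum such cells form the circular and longitudinal layers that move the contents along, the thin muscularis mucosae, strands within the villi, and the walls of blood vessels. Many contractile genes are known targets of serum response factor (SRF), which binds CArG boxes together with its partner myocardin.

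The 10 genes lie apart from each other on the mm10 genome, per the GENCODE M21 annotation. Des spans chr1:75360329-75368579 on the plus strand and Acta2 chr19:34241090-34255590 on the minus strand. Actg2 spans chr6:83512905-83536265 (minus), Myh11 chr16:14194535-14291372 (minus) and Tagln chr9:45929619-45936058 (minus). Cnn1 spans chr9:22099216-22109630 (plus), Mylk chr16:34745210-35002420 (plus) and Smtn chr11:3517523-3540612 (minus). Lmod1 spans chr1:135324807-135368065 (plus) and Synpo2 chr3:123076519-123236149 (minus). All are annotated as protein coding. Exonic stretches of 50 bases found in another gene made up at most 0.34% of a gene's exonic sequence, in Myh11, which shared 26 of 7644 such stretches with the nonmuscle myosin gene Myh9. Des, Tagln, Mylk and Smtn overlap exons of a gene on the opposite strand, and no source used here gives the strand setting of the counting, so a part of their values could belong to those partners.

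The bases just upstream of 3 of the genes are shown because these 3 differ most in how they moved with age: Des and Cnn1 were higher at P24 and Acta2 was not. The sequences are 250 bases before the RefSeq start site, on the strand of the gene, from build GRCm38.p6, at chr19:34255374-34255623 for Acta2, chr1:75360042-75360291 for Des and chr9:22099003-22099252 for Cnn1. Capitals mark CArG boxes with at most 1 G or C among the 6 bases between CC and GG.
Acta2: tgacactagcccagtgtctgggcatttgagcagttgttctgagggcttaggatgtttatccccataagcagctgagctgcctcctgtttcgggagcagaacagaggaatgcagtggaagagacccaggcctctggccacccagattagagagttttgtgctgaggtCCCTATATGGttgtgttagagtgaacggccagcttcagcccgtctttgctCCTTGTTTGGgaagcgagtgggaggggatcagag
Des: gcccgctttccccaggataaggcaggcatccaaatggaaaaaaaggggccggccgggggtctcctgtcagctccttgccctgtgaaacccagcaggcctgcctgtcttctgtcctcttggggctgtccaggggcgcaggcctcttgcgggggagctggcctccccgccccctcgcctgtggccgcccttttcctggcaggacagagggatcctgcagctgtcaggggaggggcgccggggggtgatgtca
Cnn1: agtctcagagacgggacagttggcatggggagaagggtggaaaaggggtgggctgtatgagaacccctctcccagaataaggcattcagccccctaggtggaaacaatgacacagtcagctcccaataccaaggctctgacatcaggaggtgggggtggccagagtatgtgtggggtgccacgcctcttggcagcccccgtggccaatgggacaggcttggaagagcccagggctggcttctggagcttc

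A search for the CArG box (CC, 6 bases of A or T, then GG, a pattern read on both strands) used 300 bases around the start, of which 250 lay before it. Promoters of 7 of the 10 genes were in the RefSeq table. None of the 7 held the exact box in this window, which 1.63% of 32851 promoters in the table held. With at most 1 G or C allowed among the 6 bases, 9.98% of promoters held a match, and of the 7 only Acta2 did. Its matches were CCCTATATGG at bases -84 to -75 from the start and CCTTGTTTGG at bases -34 to -25. These are matches of letters in a short window, and the files hold no measurement of factor binding.

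By the reads recovered from the steps between low TPM values, libraries held 35.6 to 46.5 M gene-assigned reads, with a median of 42.7 M. The thinnest of the 10 genes, Lmod1, had at least 1005 reads in each library, so counting error was small beside the spread between libraries. The epithelial genes Vil1 and Epcam were at 477 and 1986 TPM or more in every library. Genes used as markers of position along the small intestine differed between libraries and between the ages. Age, weaning and sampled position cannot be told apart in a difference between P14 and P24. The ileal bile acid binding protein Fabp6 ranged from 346 to 1181 TPM at P14, from 14370 to 21407 at P24, from 214 to 2983 after PBS and from 1663 to 9878 after rmIl22. Gata4, a transcription factor of the proximal small intestine, was 10.8 to 17.4 TPM in the PBS libraries, at most 1.36 TPM at P24 and 0.119 to 7.51 TPM at P14.

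Taken per length, the 10 genes covered a wide range of levels and held nearly the same order in every library. Over the 14 libraries the mean was 859 TPM for Acta2 (alpha smooth muscle actin), 581 for Actg2 (gamma smooth muscle actin, the enteric form), 428 for Tagln (transgelin, which binds actin) and 309.7 for Myh11 (the smooth muscle myosin heavy chain). Mylk (myosin light chain kinase), Des (desmin) and Cnn1 (calponin 1, which binds actin and restrains the myosin motor) formed a middle group at 152, 132 and 130.5 TPM. Smtn (smoothelin, an actin-binding protein of contractile smooth muscle), Lmod1 (leiomodin 1, which nucleates actin filaments) and Synpo2 (synaptopodin 2, also called myopodin, an actin-bundling protein) were lowest at 28.9, 18.2 and 17.4 TPM. Ranked within each library, Acta2 and Actg2 always held ranks 1 and 2, Tagln and Myh11 ranks 3 and 4, and Smtn rank 8. Neighbours within these steps traded places between libraries. Together the 10 genes took 0.121% to 0.395% of a library's TPM.

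**Figure D1:**
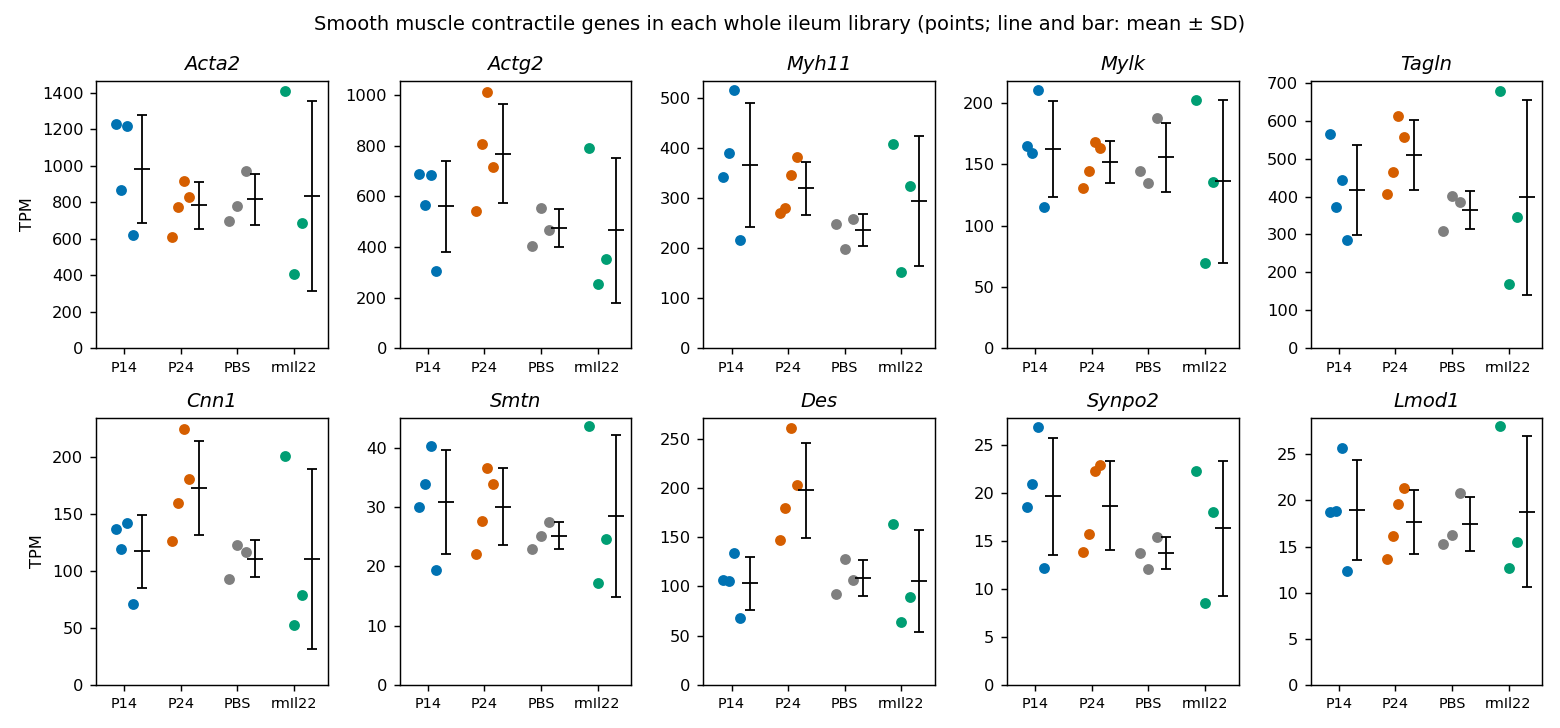
Level of each gene in TPM (vertical axis, from 0) in every library of P14 and P24 (4 each), PBS and rmIl22 (3 each); points are libraries, and the line with its bar is the mean ± SD. Des at P24 (147 to 261 TPM) lies above every other group except for rmIl22 library 1 (163 TPM), and the rmIl22 libraries are the most scattered for all 10 genes.

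With age, desmin rose and the bulk of the contractile genes did not pass the test in either direction. Between P14 and P24, 2 of the 10 genes were called higher (Des and Cnn1), 0 lower, and 8 did not pass (limma on log2(TPM + 1), Benjamini-Hochberg adjusted p under 0.05 over 14651 genes). Over all genes tested, 58.3% were called, 14.6% higher and 43.7% lower, so the share of the 10 genes called higher was near that of all genes. In bulk tissue, fewer cells of a type and less of an RNA per cell cannot be told apart. The median log2 fold change was -0.03 over the 10 genes and -0.25 over all genes tested. TPM are shares of a fixed total, and 9 of the 10 genes lay above the median gene, Acta2 being the exception.

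Desmin, the intermediate filament protein of muscle, was 106, 105, 134 and 67.9 TPM in P14 libraries 1, 2, 4 and 5, and 147, 179.8, 261 and 203 TPM in P24 libraries 1, 2, 6 and 8. Every P24 library was above every P14 library, and Des was the only 1 of the 10 whose P14 and P24 values did not overlap, against 13.0% of all genes tested that lay apart and higher and 52.4% that lay apart in either direction. Its mean went from 103 ± 27.2 to 198 ± 48.1 TPM (SD, n = 4 each), a log2 fold change of 0.94 (SE 0.21, 95% interval 0.48 to 1.39, limma adjusted p = 0.00241). Relative to the median gene the difference was 1.18 on the log2 scale. The call held under each of the 17 alternatives tried, with adjusted p from 1.66e-04 to 0.0146.

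Among the genes that regulate thin filaments, Cnn1 was 137, 119, 142 and 71 TPM at P14 (libraries 1, 2, 4 and 5) and 126, 159.8, 225 and 181 TPM at P24 (libraries 1, 2, 6 and 8). P24 library 1 fell among the P14 values, while the other P24 libraries exceeded them all. The mean rose from 117 ± 32.4 to 173 ± 41.5 TPM (SD, n = 4 each), with a log2 fold change of 0.58 (SE 0.22, limma adjusted p = 0.0426). This call held under 8 of 17 alternatives (adjusted p 0.00286 to 0.179), and leaving out 1 library ended it in 5 of 8 cases, with adjusted p = 0.0602 and 0.103 without P14 library 2 or 5 and 0.0513, 0.115 and 0.0726 without P24 library 2, 6 or 8. Tagln was 565, 372, 445 and 285 TPM at P14 and 407, 464, 613 and 558 TPM at P24, overlapping ranges with a log2 fold change of 0.32 (SE 0.20, limma adjusted p = 0.186). Smtn was 19.3 to 40.3 TPM at P14 and 22.1 to 36.6 TPM at P24, with a log2 fold change of -0.02 (SE 0.21, limma adjusted p = 0.95). Smtn turned positive, at 0.28, when libraries were scaled to their median gene, still without passing (adjusted p = 0.214).

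Neither smooth muscle actin of the thin filament passed the test. Acta2, the form shared by visceral and vascular muscle, was 1232, 865, 1219 and 620.1 TPM at P14 and 609, 777, 916 and 831 TPM at P24. P14 libraries 1 and 4 were the highest, and library 5 lay near the lowest P24 library. The log2 fold change of Acta2 was -0.29 (SE 0.21, limma adjusted p = 0.26), and 0.02 with libraries scaled to their median gene. Actg2, the enteric form, was 689, 567, 683 and 305 TPM at P14 and 541, 806, 1014 and 714 TPM at P24. The ranges overlapped, with 3 of the 4 P24 libraries above every P14 library, and the log2 fold change was 0.49 (SE 0.26, limma adjusted p = 0.123).

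For the myosin motor and its kinase the values at both ages overlapped. Myh11 was 342, 390.1, 516 and 217 TPM at P14 and 271, 280.3, 346 and 382 TPM at P24, with a log2 fold change of -0.14 (95% interval -0.63 to 0.34). Mylk was 165, 159, 211 and 115 TPM at P14 and 131, 145, 168 and 163 TPM at P24, with a log2 fold change of -0.08 (95% interval -0.43 to 0.28). All P24 values of both genes lay within the range of the P14 values. Mylk counts pool the long and short kinase and telokin, which are made from the same locus. The actin nucleator Lmod1 (12.4 to 25.7 TPM at P14, 13.7 to 21.4 at P24) and the bundler Synpo2 (12.2 to 26.9 and 13.8 to 22.9) had log2 fold changes of -0.07 and -0.04. Their 95% intervals ran from -0.50 to 0.36 and from -0.53 to 0.44, and the limma adjusted p-values of these 4 genes were 0.6 to 0.872.

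The scale on which libraries are compared bears on these calls. When each library was scaled to its median gene, the median over all genes moved from -0.25 to 0.02 on the log2 scale, 29.5% of genes were called higher and 28.2% lower, and the signs of Acta2, Myh11, Mylk, Smtn, Lmod1 and Synpo2 turned positive without passing. On that scale 4 of the 10 genes were higher at P24: Des (1.25, adjusted p = 4.98e-04), Cnn1 (0.88, 0.0064), Actg2 (0.80, 0.0249) and Tagln (0.63, 0.0266), all log2 fold changes with limma adjusted p-values. The same 4 genes were called with limma's voom on the recovered reads, where 32.1% of all genes were called higher. Both counts of 4 lie near the share of all genes on their scale. The authors' deposited table of this comparison gave a positive log2 fold change for all 10 and an adjusted p under 0.05 for 3, Des (1.28, 1.20e-06), Cnn1 (0.90, 0.0098) and Actg2 (0.80, 0.0199). Of 23529 genes in the authors' deposited table, 20.2% were called higher, and the median log2 fold change was 0.02.

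**Figure D2:**
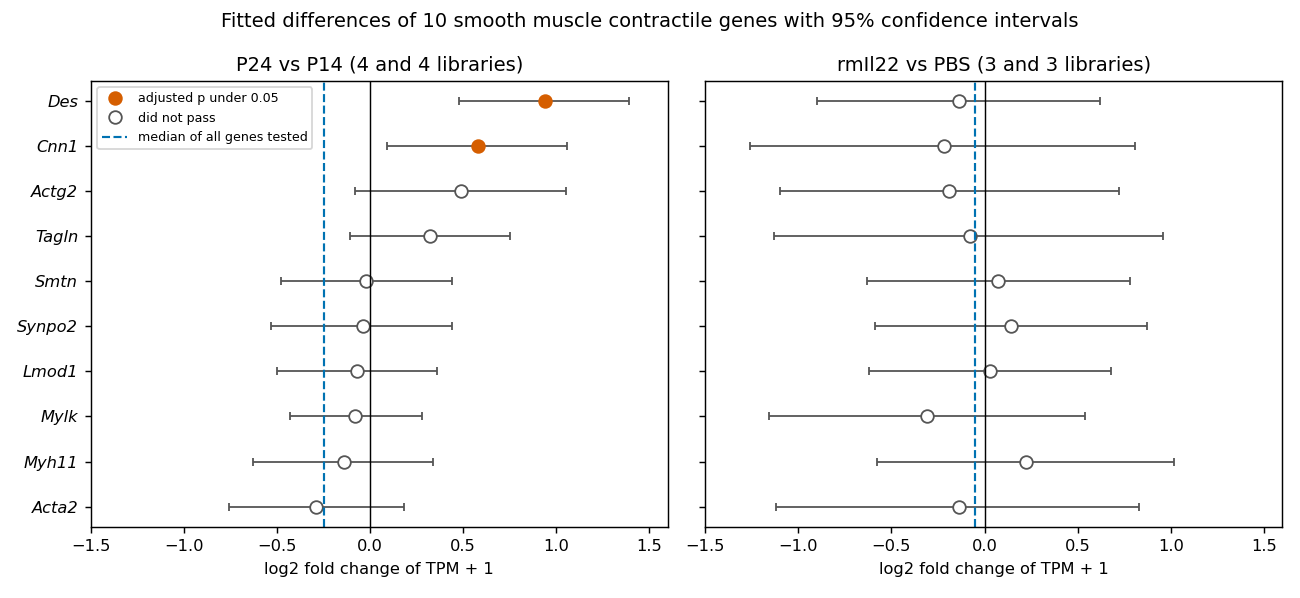
Log2 fold change of TPM + 1 for each gene (horizontal axis), P24 against P14 on the left and rmIl22 against PBS on the right; bars are 95% confidence intervals, filled points have an adjusted p under 0.05, and the dashed line is the median of all genes tested (-0.25 and -0.05). Des (0.94) and Cnn1 (0.58) are filled on the left, and no gene is filled on the right.

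Ratios between the genes within a library do not depend on how libraries are scaled, and 4 of the 9 ratios to Acta2 lay apart between the ages. Des per Acta2 was 0.0857, 0.122, 0.11 and 0.11 in P14 libraries 1, 2, 4 and 5 and 0.241, 0.231, 0.285 and 0.244 in P24 libraries 1, 2, 6 and 8. The lowest P24 ratio was well above the highest P14 ratio, and the mean ratio went from 0.107 ± 0.0151 to 0.25 ± 0.0236 (SD, n = 4 each), a 2.36-fold difference of geometric means. Cnn1 per Acta2 rose 1.83-fold (0.12 ± 0.0117 to 0.219 ± 0.0186), with P14 ratios of 0.111 to 0.137 and P24 ratios of 0.206 to 0.246. Actg2 per Acta2 rose 1.72-fold, from 0.567 ± 0.0675 to 0.973 ± 0.119, so that the gamma actin equalled or passed the alpha actin in 2 of the P24 libraries (1.04 and 1.11) and in none at P14. Tagln per Acta2 rose 1.52-fold, from 0.429 ± 0.0443 to 0.651 ± 0.0359.

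These 4 ratios did not overlap between the ages, while the other 5 (Myh11, Mylk, Smtn, Lmod1 and Synpo2) did, with smaller fold differences of 1.11 to 1.21, all upward. Acta2 had the lowest log2 fold change of the 10 (-0.29), so all 9 ratios to it were bound to be upward. Over all genes tested, 11.7% had ratios to Acta2 that lay apart and higher at P24 and 12.9% lay apart and lower. Those shares are not a like background for the 9 ratios. After centring on group means the 9 genes correlated with Acta2 at 0.84 to 0.96, so dividing by it takes out shared spread, which need not hold for other genes. As a share of the summed TPM of the 10 genes, Acta2 went from 35.3% ± 1.96 to 26.4% ± 0.786 and Des from 3.75% ± 0.371 to 6.61% ± 0.413 (SD, n = 4 each). Ratios and shares are descriptions without a test, and a ratio shows unequal change, not which of its genes moved.

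**Figure D3:**
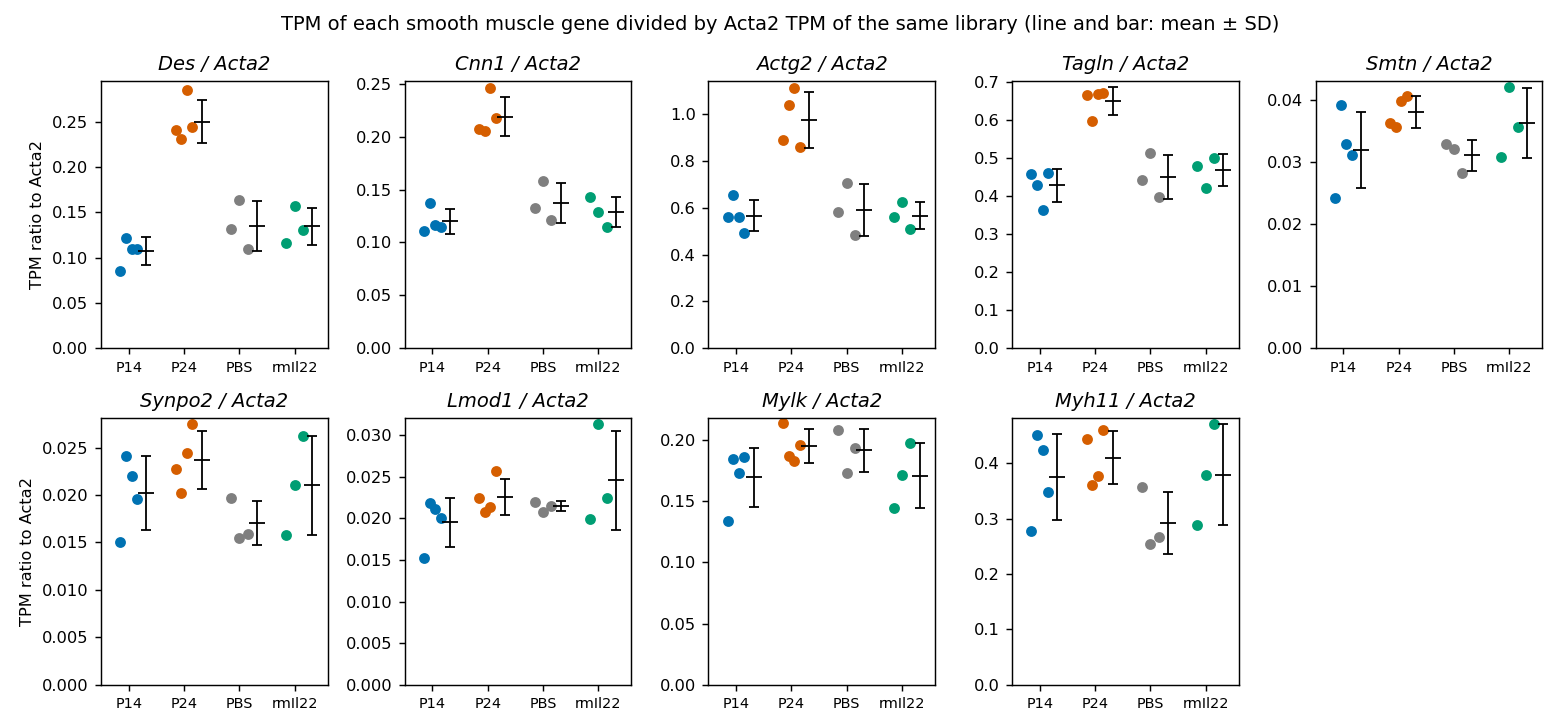
TPM of each gene divided by the TPM of Acta2 in the same library (vertical axis, from 0), for the libraries of P14, P24, PBS and rmIl22; points are libraries and the line with its bar is the mean ± SD. The P24 points of Des, Cnn1, Actg2 and Tagln lie above all P14, PBS and rmIl22 points, and the points of the other 5 genes overlap between ages.

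In these 4 ratios, all 6 libraries of injected mice at day 16 lay below every P24 library, and both injected groups overlapped the P14 range. These 4 were picked because P24 lay apart from P14, which favours this outcome. The share of all genes lying apart between P24 and the injected groups was not counted, for ratios or for levels. Des per Acta2 was 0.109 to 0.164 after PBS and 0.116 to 0.157 after rmIl22, and Actg2 per Acta2 was 0.483 to 0.706 and 0.511 to 0.625. In order of mean level, Des ran from P24 (198 TPM) to PBS (109 ± 18.3, n = 3), rmIl22 (105 ± 51.9, n = 3) and P14 (103), and only the step from P24 to PBS was between groups that did not overlap. For each of the other 9 genes, no neighbours in the order of the 4 groups lay apart.

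Injected Il22 left no called difference in the contractile genes, in libraries that varied widely. Between rmIl22 and PBS 0 of the 10 genes passed in the limma fit, 0 had an unadjusted p under 0.05, and voom on the recovered reads also called 0. Of 14456 genes tested, 2.69% were called, 0.443% higher and 2.25% lower. This background rests on single libraries: without PBS library 3 it was 1 gene higher and 3 lower, and without rmIl22 library 2 it was 455 and 874. The authors' deposited table of this comparison lists 1102 genes, each with an adjusted p of at most 0.00999, and none of the 10 is among them. The log2 fold changes ran from -0.31 for Mylk to 0.22 for Myh11, with a median of -0.11, against -0.05 over all genes tested. The 95% intervals were wide: -0.90 to 0.62 for Des, -1.12 to 0.83 for Acta2 and -1.26 to 0.81 for Cnn1, so a 1.5-fold difference either way lay within each of these 3 intervals.

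The values show where that width comes from. Acta2 was 695, 782 and 969.9 TPM in PBS libraries 1, 2 and 3, and 1411, 405 and 688 TPM in rmIl22 libraries 1, 2 and 3. Actg2 was 404, 552 and 468 TPM after PBS and 792, 253 and 351 TPM after rmIl22. In both actins rmIl22 library 1 lay above all PBS libraries and library 2 below them all.

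Of the motor and regulatory genes, Myh11 was 248, 199 and 259 TPM after PBS and 408, 153 and 324 TPM after rmIl22. Without rmIl22 library 2 it had a log2 fold change of 0.64 and a limma adjusted p of 0.0442, the only call among the 10 genes when any 1 library was left out. Tagln was 308, 401 and 386 TPM after PBS and 678, 170.4 and 346 TPM after rmIl22, the widest spread of the 10, at 3.98-fold from the lowest to the highest library. Cnn1 was 92.6, 123 and 117 TPM after PBS and 201, 52.2 and 79.1 TPM after rmIl22.

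Desmin was 91.9, 128 and 106 TPM after PBS and 163, 63.5 and 89.5 TPM after rmIl22. Mylk was 145, 135 and 188 TPM after PBS and 203, 69.2 and 136 TPM after rmIl22. The 3 genes of lowest level repeated this, Smtn with 22.9 to 27.5 TPM after PBS and 17.1 to 43.6 after rmIl22, Lmod1 with 15.3 to 20.8 and 12.7 to 28.1, and Synpo2 with 12.1 to 15.4 and 8.55 to 22.3. None of the 10 genes had separate ranges, against 21.1% of all genes tested.

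Ratios to Acta2 scattered less and did not separate the groups either. Over the rmIl22 libraries the coefficient of variation was 43.2% to 71.6% for the levels of the 10 genes and 9.03% to 24.7% for the 9 ratios. None of the 9 ratios lay apart between rmIl22 and PBS, against 2.07% of genes apart and higher and 1.46% apart and lower. As with age, these shares are not a like background. Des per Acta2 was 0.132, 0.164 and 0.109 after PBS and 0.116, 0.157 and 0.13 after rmIl22. Over the 9 ratios the fold differences of geometric means were 0.887 (Mylk) to 1.29 (Myh11).

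Whether the age effect and the rmIl22 effect differed was tested directly, in 1 fit of all 14 libraries with 15702 genes. None of the 10 genes passed (23.8% of all genes did), and 1 of the 10, Des, had an unadjusted p under 0.05. For Des the age effect minus the rmIl22 effect was 1.08 on the log2 scale (SE 0.41, 95% interval 0.20 to 1.96, limma adjusted p = 0.0708), short of the threshold. With libraries scaled to their median gene it passed, at 1.32 with an adjusted p of 0.0212, as 1 of the 10 genes, against 14.0% of all genes called higher on that scale. Without rmIl22 library 1, Des (1.45, limma adjusted p = 0.0115) and Cnn1 (1.34, limma adjusted p = 0.0234) both passed, in a fit that called 6.90% of 15626 genes higher and 13.3% lower.

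In P14, P24 and rmIl22, 1 library was the lowest of its group for all 10 genes, while the PBS libraries showed no such order. In rmIl22, library 1 was the highest and library 2 the lowest for 10 of 10 genes, and the summed TPM of the 10 was 3951, 1205 and 2071 in libraries 1, 2 and 3, a 3.28-fold range. The sum was 2036 to 2557 after PBS (1.26-fold), 1724 to 3444 at P14 (2-fold) and 2281 to 3621 at P24 (1.59-fold). P14 library 5 and P24 library 1 were each the lowest of their group for all 10 genes. PBS library 2 was the highest of its group for 4 genes, Des (128 TPM) and Actg2 (552 TPM) among them, and the lowest for 3, Myh11 (199 TPM) and Mylk (135 TPM) among them.

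**Figure D4:**
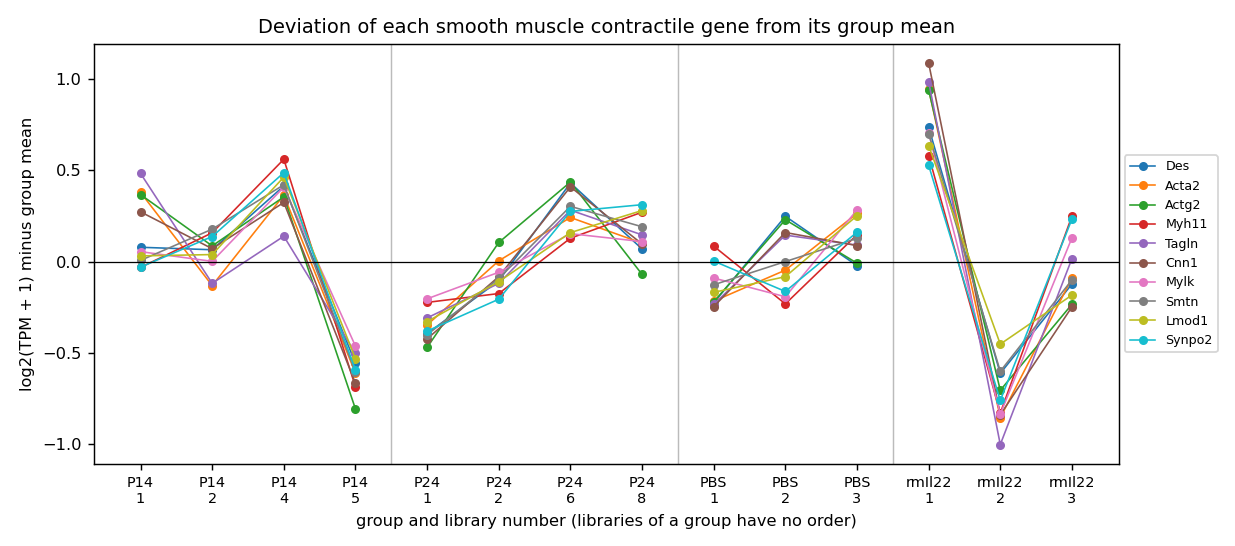
Deviation of log2(TPM + 1) of each gene (1 line per gene) from the mean of its group (vertical axis), in each of the 14 libraries (horizontal axis, by group and library number). Outside PBS, where no common order is seen, the lines run close together, down in P14 library 5, P24 library 1 and rmIl22 library 2, and up in rmIl22 library 1.

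After centring each gene on its group means, the correlation of gene pairs over the 14 libraries was 0.75 (Actg2 with Myh11) to 0.98 (Myh11 with Synpo2), with a median of 0.91 over 45 pairs. Among 14151 other genes, the median correlation with the mean of the 10 was 0.35. All these values share the same libraries and their scaling, and they are given as a description. The 10 other genes most like the mean of the contractile genes were Cap2 (Pearson r 0.988), Pgm5 (0.984), Jph2 (0.983), Fbxl22 (0.982), Synm (0.981), Slc2a4 (0.981), Tpm1 (0.980), Pdlim7 (0.979), Csrp1 (0.975) and Six5 (0.974). Of these, Synm encodes synemin, a partner of desmin, Tpm1 a tropomyosin, and Jph2 junctophilin 2, which couples surface membrane and calcium store. Synm was higher at P24 (log2 fold change 0.58, limma adjusted p = 0.0412), and the other 9 did not pass with age, where 58.3% of all genes were called. None of the 10 passed with rmIl22, where 2.69% of all genes were called. These genes were picked for sharing the spread within groups, and a wide spread makes a call less likely.

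Some other measures followed this scatter in rmIl22 and some did not. In rmIl22 libraries 1, 2 and 3 the summed TPM was 1145, 489 and 1091 for 9 fibroblast and matrix genes, 23.5, 9.7 and 19.5 for 3 genes of the interstitial cells of Cajal (the gut's pacemaker cells), and 51.4, 61.2 and 58.5 for 6 endothelial genes. The fibroblast and pacemaker sums were lowest in library 2, as were the contractile genes, while the endothelial sum was highest there. The sum of 8 epithelial genes was 10435, 6426 and 7645 TPM, also highest in library 1 and lowest in library 2. Gata4, the proximal marker, was 0.0983, 15.8 and 0.177 TPM in these libraries and 10.8, 13.8 and 17.4 TPM in the PBS libraries, so rmIl22 library 2 had the Gata4 level of the PBS group and libraries 1 and 3 did not. The summed contractile TPM of rmIl22 library 3 (2071) was within the PBS range. P14 libraries 4 and 5, the highest and lowest of their group with sums of 3444 and 1724 TPM, had 6.57 and 7.51 TPM of Gata4. Among the injected mice, low Gata4 was seen only after rmIl22, so sampled position and treatment cannot be told apart there. The part of the sampled position along the gut in the values of the contractile genes was not tested.

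Partners of the thick and thin filament were mixed with age. Of 16 such genes 2 rose and 4 fell, against 14.6% and 43.7% of all genes, with a median log2 fold change of -0.18. With libraries scaled to their median gene 3 rose and 1 fell and the median was 0.12, so the balance and the sign turned with the scale. Hspb6, the small heat shock protein that is phosphorylated during relaxation, rose from 3.75 ± 1.06 to 6.41 ± 1.58 TPM (SD, n = 4 each, log2 fold change 0.65, limma adjusted p = 0.0131). Synm, counted above, rose from 39.2 ± 12.1 to 57.3 ± 11 TPM, a call that was lost without P14 library 5 or P24 library 6 or 8 (limma adjusted p = 0.0803, 0.102 and 0.0748, and 0.00192 to 0.148 over the alternatives). Tgfb1i1 (a LIM-domain adaptor of focal adhesions, -0.65, limma adjusted p = 0.00824) and Cnn2 (calponin 2, found in many cell types, -0.64, 0.00341) fell, the latter not passing with libraries scaled to their median gene. The regulatory light chain Myl9 was 862 TPM at P14 and 786 TPM at P24, with a log2 fold change of -0.10 that did not pass.

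Among genes of light chain phosphorylation, calcium handling and receptors, the share that fell was near that of all genes. Of 23, 1 rose and 11 fell (median log2 fold change -0.36), against 14.6% and 43.7% of all genes, and with libraries scaled to their median gene 7 rose and 6 fell, so the balance of this list turned with the scale. Rock2, a kinase that restrains the light chain phosphatase, had a log2 fold change of 0.33 (limma adjusted p = 0.0335), a call lost without P14 library 1 or 5 or P24 library 2, 6 or 8 (adjusted p 0.05 to 0.0947, and 5.62e-05 to 0.602 over all 17 alternatives). Both subunits of the soluble guanylate cyclase that receives nitric oxide fell, Gucy1a3 by 0.99 and Gucy1b3 by 0.93 on the log2 scale (limma adjusted p = 5.77e-04 and 2.83e-04). Gucy1b3 was 21.9, 17.5, 24.5 and 14.2 TPM at P14 and 8.77, 10.5, 9.46 and 9.6 TPM at P24, with no overlap. Both fell under each of the 17 alternatives.

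Of 8 tested genes in a list of gut muscle transcription factors, 6 fell and 1 rose, against 43.7% and 14.6% of all genes. The median log2 fold change was -0.71, and 5 fell and 2 rose with libraries scaled to their median gene. Gata6, 1 of the 6, did not follow the contractile genes in rmIl22. It was 26.8, 46.9 and 30.7 TPM in rmIl22 libraries 1, 2 and 3, highest in library 2, where the contractile genes were lowest. The largest falls were in the forkhead factors of gut mesenchyme, Foxf2 from 13.7 ± 2.69 to 5.56 ± 0.307 TPM and Foxf1 from 33.1 ± 5.57 to 14.7 ± 1.64 TPM (log2 fold changes -1.15 and -1.11, limma adjusted p = 2.06e-05 and 2.38e-05). Myocd, the SRF partner myocardin, was 6.25, 6.85, 9.18 and 5.14 TPM at P14 and 2.86, 2.85, 3.97 and 4.55 TPM at P24, a log2 fold change of -0.78 (limma adjusted p = 0.00251). All P24 libraries were below all P14 libraries for Myocd. Srf had a log2 fold change of 0.33 (limma adjusted p = 0.0444), and it passed under 7 of 17 alternatives (adjusted p 1.49e-04 to 0.583). Without 1 library it was lost for 6 of 8, all but P14 library 4 and P24 library 8, with adjusted p of 0.0549 to 0.0958. Myocd, Myl9, Prkg1, Pde5a, the striated genes other than Acta1 and the pancreatic genes other than Clps and Cela1 are named outside the rule for named genes, after their values were seen. The same holds for Gata6 and Rgs5 with age. Prkg1, the kinase that nitric oxide signalling turns on through cyclic GMP, went from 5.04 to 2.1 TPM (log2 fold change -0.93, limma adjusted p = 0.00125). Pde5a, in the same list as Prkg1 and more abundant, did not pass. Its means were 40.5 TPM at P14 and 45.2 TPM at P24 (log2 fold change 0.17, limma adjusted p = 0.241).

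Of 9 nonmuscle forms of the same proteins and their relatives, 3 rose and 3 fell, against 14.6% and 43.7% of all genes. With libraries scaled to their median gene 5 rose and 1 fell, against 29.5% and 28.2% of all genes. Actg1 (cytoplasmic gamma actin, log2 fold change 0.74) and Myl12b (a nonmuscle light chain, 0.50) rose, and Myh10 (nonmuscle myosin IIB, -1.27) and Cnn3 (calponin 3, -0.50) fell. Myh10 was 7.39 to 14.4 TPM at P14 and 3.38 to 4.33 TPM at P24. The Cnn3 call was lost on the scale of the median gene.

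Among 12 striated muscle markers, 4 passed the filter and 1 of these was called, against 58.3% of all genes tested. Acta1, the skeletal muscle actin, was 1.18, 1.59, 1.33 and 1.25 TPM at P14 and 21.9, 70, 34.4 and 20.4 TPM at P24. Each P24 library exceeded each P14 library by far (log2 fold change 3.84, SE 0.30, limma adjusted p = 9.34e-07, called under each of the 17 alternatives). It was 1.3 to 1.85 TPM after PBS and 9.67, 1.32 and 3.31 TPM in rmIl22 libraries 1, 2 and 3. The skeletal myosin gene Myh4 was listed at 0 in every library, Myh1 and Myh2 did not exceed 0.0153 and 0.0627 TPM, and the muscle creatine kinase Ckm did not pass with age (0.30, limma adjusted p = 0.186). Of the 50-base stretches of Acta1 exons, 2.02% occur in other genes, mostly the entry Gm47692 and Actb.

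Markers of other cells of the gut wall moved with age as well, and their part in the values of the contractile genes was not tested. Over all genes tested 43.7% fell, and 28.2% with libraries scaled to their median gene. Among vascular mural genes 7 of 8 tested fell (Ndufa4l2 by 0.99 and Notch3 by 0.98 on the log2 scale), and the list summed to 173 to 292 TPM at P14 and 155 to 219.7 at P24. Rgs5, the most abundant gene of the mural list, did not pass. Its means were 123 TPM at P14 and 126 TPM at P24 (log2 fold change 0.05, limma adjusted p = 0.803). Of genes of the interstitial cells of Cajal 2 of 3 fell (Etv1 by 0.73, and Ano1 by 0.35, which passed under 4 of 17 alternatives and, with 1 library left out, only without P14 library 5), with sums of 14.6 to 24.1 and 12.1 to 15.5 TPM. For fibroblast and matrix genes 5 of 9 fell (Col1a1 by 1.13 and Pdgfra by 1.09), with sums of 760.0 to 1443 and 479 to 653 TPM. Neuron and glia genes fell in 9 of 10 tested (Ret by 2.68 and S100b by 1.09), with sums of 76.1 to 118 and 31 to 49.8 TPM. Ret alone went from a mean of 30.9 to 3.96 TPM, while the mean sum went from 99 to 41.5 TPM. Ret and S100b did not go together in the other groups. After PBS their means were 32.6 and 2.87 TPM, against 30.9 and 5.6 TPM at P14. All 6 endothelial genes fell (Cdh5 by 0.92 and Tek by 0.85), with sums of 56.6 to 84.1 and 34 to 41.9 TPM. With libraries scaled to their median gene the falls were 6 mural, 1 Cajal cell, 5 fibroblast, 8 neuron and glia, and 6 endothelial genes.

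Calls were more often higher than lower in the lists of epithelium, mesothelium (the outer lining) and fat, against 14.6% higher and 43.7% lower over all genes. Of 8 epithelial genes 5 rose (Krt20 by 4.37 and Krt19 by 1.69 on the log2 scale) and 1 fell (Krt18, -1.06), and their sum was 5611 to 7145 TPM at P14 and 10847 to 13761 at P24. Mesothelial Upk1b rose (2.15), as 1 of 4 tested, and the list summed to 16.9 to 35.4 and 35.6 to 60 TPM. Of 5 adipocyte genes tested 4 rose (Cfd by 4.09 and Adipoq by 3.03) and Cidec fell (-1.23), and the list summed to 127 to 170.3 and 229 to 390.3 TPM. Cidec carried most of the P14 sum, with a mean of 109.8 TPM against a mean sum of 154. At P24 these means were 45.7 and 303 TPM. Of 2 pancreatic genes tested Clps rose (0.81) and Cela1 fell (-0.42, lost on the scale of the median gene). The other pancreatic genes did not go with Clps. Cpa1 and Pnlip did not exceed 0.301 and 0.323 TPM in any library, and the mean of Ctrb1 was 4.48 TPM at P14 and 0.0608 TPM at P24. No marker of these lists was at 0 in all libraries except the skeletal myosin Myh4.

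**Figure D5:**
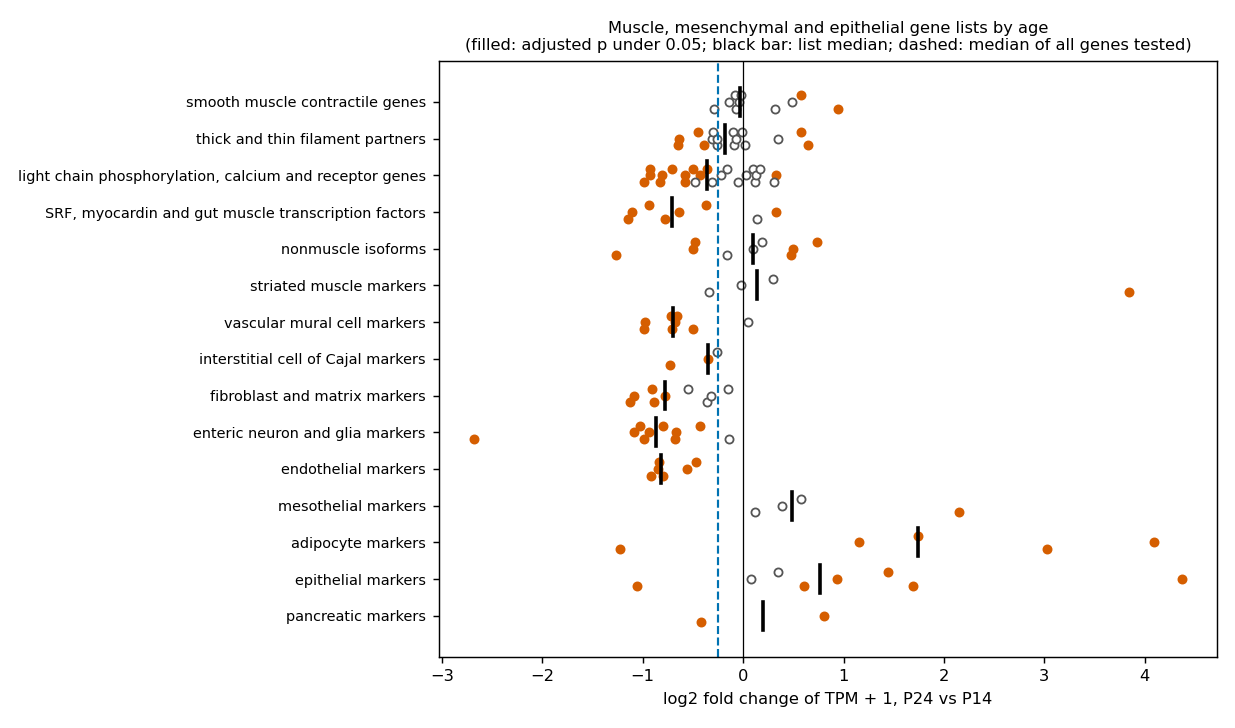
Log2 fold change of TPM + 1, P24 against P14 (horizontal axis), for the genes of each list that passed the filter (1 row per list, 1 point per gene); filled points have an adjusted p under 0.05, black bars are list medians and the dashed line is the median of all genes tested (-0.25). The median bar of the contractile genes is at -0.03 with Des farthest right at 0.94, the bars of the endothelial, neuron and mural lists lie left of the dashed line (-0.82, -0.87 and -0.70), and Acta1 stands alone at 3.84 among striated muscle markers.

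With rmIl22, 0 genes passed in the limma fit in 13 of the 14 other lists. Under any 1 alternative at most 1 gene of such a list passed, in each direction. On the log2 scale, Myl6 differed by -0.11, Ppp1r12a by 0.06, Gata6 by -0.44, Actb by -0.13, Ckm by -0.07, Rgs5 by -0.21 and Ano1 by -0.15, and none passed. Col3a1 differed by -0.13, Ret by -0.30, Lyve1 by -0.27, Msln by -0.49, Cidec by -0.71 and Krt8 by 0.25, also without passing. The exception was the pancreatic gene Clps (-0.73, limma adjusted p = 0.0416), which passed under 5 of 16 alternatives (adjusted p 0.0202 to 1). Leaving out 1 library ended this call except for rmIl22 library 2, with adjusted p of 0.0843 to 0.196.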

How the data were processed

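Stranded libraries were made from ribosome-depleted total RNA of whole ileum, per the labels' protocols. TPM values by gene symbol were deposited in 1 table. FastQC 0.11.2, STAR 2.4.0f, HTSeq 0.6.1p1, DESeq2 1.14 and mm10 are named in the submitters' processing notes, without their roles. The annotation and the strand setting are not given in these sources. Of 46882 entries, 27 with date-like symbols (at most 0.0776% of a library's TPM) were left out. Whole reads were recovered from the deposited TPM for all 31189 genes with a value above 0 (100.0%, within 0.001 of a whole number), as the smallest whole numbers in proportion, so reads with a common factor can be undercounted. The recovered counts served only depth and voom.

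Tests ran in R 4.3.3 with limma 3.58.1, using its intensity trend, on log2(TPM + 1), two-sided, fitted on the libraries of each comparison (all 14 for the difference of both effects). Log2 fold changes on this scale understate the change of low genes. Genes were kept where 4 or more libraries (age) or 3 or more (rmIl22 and the difference) reached a TPM of 1. Benjamini-Hochberg adjustment covered all genes of a fit, with a threshold of 0.05. The authors' deposited comparison tables give log2 fold changes and adjusted p-values with decimal commas. The code was tested on simulated data.

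The members and lists were chosen with earlier results of these data known. The values of 1 gene of a list are not reported here, and it was left out of that list's counts. Of each other list, up to 2 called genes per direction with the largest change were named, or the most abundant where none was called. Alternatives were pseudocounts of 0.1 and 5, no filter, median-gene and quantile scaling, a joint fit, no trend, voom, a replicate block, leaving out each library, and, chosen after seeing the data, scaling to the mean of the 10 genes. Fabp6, Slc10a2 and Gata4 were also looked at after seeing the data. Columns of P14 and P24 carry the numbers 1, 2, 4, 5 and 1, 2, 6, 8, not those of the labels, and were assigned to groups only.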

Additional observations from a re-analysis of the deposited data

How the results depend on the processing

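Of the 10 genes, 2 were called between P14 and P24. Counts under alternatives were 4 with libraries scaled to their median gene, 4 with voom on recovered reads, and 1 each with no filter, with a joint fit of all 14 libraries, without the intensity trend and with scaling to the mean of the 10 genes (chosen after seeing the data). The members' count was 1 to 3 when 1 library was left out: without P14 library 1 Tagln joined Des and Cnn1, and without P14 library 5 the calls were Des and a lower Acta2 (-0.49, limma adjusted p = 0.0324). Of 170 member values under alternatives, 155 were on the same side of the threshold in the same direction or uncalled both times, 9 lost a call (all Cnn1), 6 gained one and 0 reversed. For rmIl22 against PBS, 0 of the 10 were called, and 0 to 1 with 1 library left out. For the difference of both effects 0 were called, 1 with median-gene scaling, and 0 to 2 with 1 library left out. Of 594 values for the 35 calls named in other genes (Clps counted in both comparisons), 63 lost the call and 0 reversed.

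Over all genes, age gave 2146 higher and 6400 lower calls, but 4329 and 4135 with median-gene scaling, 4041 and 4603 with quantile normalisation, 4707 and 3857 with voom, and 1080 and 5320 scaled to the mean of the 10 genes. The rmIl22 comparison gave 64 and 325, but 19 and 79 with no filter, 230 and 828 in the joint fit, and 1 to 455 and 3 to 874 with 1 library left out, the highest without rmIl22 library 2 and the lowest without PBS library 3. The cause of these shifts was not tested. PBS and rmIl22 libraries share the numbers 1 to 3. Same-numbered libraries correlated at -0.07 to 0.33, and 1 of 3 PBS libraries correlated best with its own number. With 3 pairs this cannot decide whether a number marks a shared litter or day. With the replicate block 0 of the 10 were called, with 59 higher and 221 lower over all genes. No paired analysis was possible because the P14 and P24 columns cannot be tied to the labels' replicate numbers. With 3 or 4 libraries a group, the spread between libraries limits precision more than depth does.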
